A study of Mus musculus with 12 samples.

Results

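The 10 genes described here were Dusp1, Dusp4, Dusp5, Dusp6, Spry1, Spry2, Spry4, Spred1, Spred2 and Spred3, the feedback phosphatases, Sproutys and Spreds that restrain the ERK kinases, chosen by name from the 55487 genes of the deposited count table. All 10 passed the filter on low counts and were among the 11314 protein-coding genes tested. They were measured in primary mesenchymal stromal cells (MSCs) from the bone marrow of wild-type C57BL/6 mice, by strand-specific sequencing of polyadenylated RNA. The study asked how A1, a conjugate of cholic acid and the nuclear localization signal of hnRNPA1, changes the transcriptome of these cells with and without the model antigen ovalbumin (OVA). The 12 samples formed 3 groups of 4, namely untreated control MSCs, MSCs given 50 μM A1, and MSCs given 50 μM A1 with 1 mg/ml OVA (A1+OVA), both treatments lasting 6 h.

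Among the samples analysed here, no group received OVA alone and none received a vehicle. The description of the A1+OVA medium also names insulin without a readable dose, so an effect of insulin and an effect of OVA cannot be told apart in the comparison of A1+OVA with A1. The cells were expanded in culture and had been stored at a late passage, and nothing in the labels says whether the 4 samples of a group came from separate animals or cultures. The p-values therefore measure the spread between these samples, which may be technical.

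Library depth ran from 13702348 to 16881995 counts, with the A1 libraries (13702348 to 14347870) below those of control (15644991 to 16881995). Of 10 MSC markers, 9 were tested, and the summed level of all 10 was 2440 to 2640 CPM (counts scaled to library size) in control, 3230 to 3450 in A1 and 3060 to 3290 in A1+OVA. That sum is mostly Itgb1 (mean 1450 CPM in control and 2220 with A1), which was higher with A1, as was Cd44 (175 and 458). Of the 9, 3 were higher and 3 lower with A1 in the edgeR test used below. The lower ones were Pdgfra (mean 247 CPM in control and 125 with A1), Vcam1 (226 and 117) and Ly6a (35.1 and 23.3). Thy1 (CD90) did not pass the filter, with at most 17 counts in any library, and Nt5e (CD73) had 7 to 14. Of 7 hematopoietic and myeloid markers only Cd14 and Cd68 were tested, and the summed level of all 7 was 9.41 to 10.5 CPM in control, 12 to 14.7 in A1 and 10.7 to 13.1 in A1+OVA, with Itgam at 0 in every control and A1 library and Adgre1 at 0 in every A1+OVA library. The 4 endothelial markers together reached at most 0.763 CPM. Whether these shifts in marker levels had a part in the results below was not tested, and in such bulk RNA fewer cells of a type cannot be told apart from less RNA per cell.

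The ERK kinases are the last step of the Ras, Raf and MEK cascade that runs from growth factor receptors to the nucleus. Activated ERK induces genes whose products shut the cascade down again. The dual-specificity phosphatases (Dusp) remove the activating phosphates from the kinases themselves, whereas the Sproutys (Spry) and the Sprouty-related Spreds act further upstream, at the receptor adaptors, Ras and Raf. In mesenchymal cells this circuit is best known downstream of the FGF and PDGF receptors. The data are transcript levels, and neither ERK phosphorylation nor protein was measured.

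The promoters of 5 of the genes are shown because their transcripts followed the most different courses. Dusp5, Dusp6 and Spry2 were higher with A1 than in control, and lower with A1+OVA than with A1. Dusp1 was higher with both treatments, and Spry1 was lower with both. Each line gives 200 bases, 5′ to 3′ on the strand of the gene, ending 51 bases before the RefSeq start site (GRCm38.p6). Capitals mark matches to the motifs searched.
Dusp5, chr19:53528895-53529094 (+): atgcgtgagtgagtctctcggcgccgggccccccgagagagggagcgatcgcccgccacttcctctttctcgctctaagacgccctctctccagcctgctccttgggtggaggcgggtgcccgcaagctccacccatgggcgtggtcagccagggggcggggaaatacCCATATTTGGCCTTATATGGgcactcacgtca
Dusp6, chr10:99262981-99263180 (+): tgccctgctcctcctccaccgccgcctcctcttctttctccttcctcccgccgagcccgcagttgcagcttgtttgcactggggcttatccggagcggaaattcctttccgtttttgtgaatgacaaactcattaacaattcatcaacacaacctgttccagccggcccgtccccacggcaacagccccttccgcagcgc
Spry2, chr14:105896870-105897069 (-): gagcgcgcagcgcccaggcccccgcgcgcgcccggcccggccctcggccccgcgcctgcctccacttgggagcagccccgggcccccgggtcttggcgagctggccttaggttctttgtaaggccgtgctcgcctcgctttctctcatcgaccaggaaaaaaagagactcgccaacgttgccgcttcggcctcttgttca
Dusp1, chr17:26508523-26508722 (-): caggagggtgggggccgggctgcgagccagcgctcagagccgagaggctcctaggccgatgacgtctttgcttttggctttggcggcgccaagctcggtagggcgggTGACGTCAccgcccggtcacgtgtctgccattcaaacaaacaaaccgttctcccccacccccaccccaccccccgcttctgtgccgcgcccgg
Spry1, chr3:37639697-37639896 (+): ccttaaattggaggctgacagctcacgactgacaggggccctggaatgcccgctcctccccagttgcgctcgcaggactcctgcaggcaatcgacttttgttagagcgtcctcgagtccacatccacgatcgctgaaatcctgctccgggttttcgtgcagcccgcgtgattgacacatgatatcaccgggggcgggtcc

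RefSeq promoter windows of 300 bases, 250 before and 50 after the start, were matched for 8 of the 10 genes, all but Dusp4 and Spry4. On both strands, 4 motifs were searched: the cyclic AMP response element TGACGTCA, found in 1.79% of all 32851 mouse windows, the AP-1 element TGANTCA (7.81%), an ETS element CCGGAAGT (3.89%) and the CArG box of serum response factor (1.63%). The searched motifs did not overlap one another in these windows. The Dusp5 window held 2 CArG boxes side by side, beginning at positions -82 and -72 from the start. The Dusp1 window held 1 cyclic AMP response element, beginning at position -143. The windows of the other 6 genes, those of Dusp6, Spry2 and Spry1 included, held none of these letters. These matches describe the sequence and say nothing about binding in MSCs.

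With A1 alone, 8 of the 10 genes were higher than in control, 1 was lower (Spry1) and 1 did not pass the test (Spred1), using edgeR's quasi-likelihood test with Benjamini-Hochberg adjustment over all tested genes and an adjusted p under 0.05. The response of the whole transcriptome was broad, since 62.7% of the tested genes passed in the same comparison, 31.7% higher and 31.1% lower. On the log2 scale the 10 genes had a median fold change of 0.61, against -0.0017 over all tested genes. The 10 genes were chosen with earlier results of these data known, so their contrasts with all tested genes here and below are descriptions. The samples of the groups did not overlap for 7 of the 10 genes, beside 54.4% of all tested genes.

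**Figure D1:**
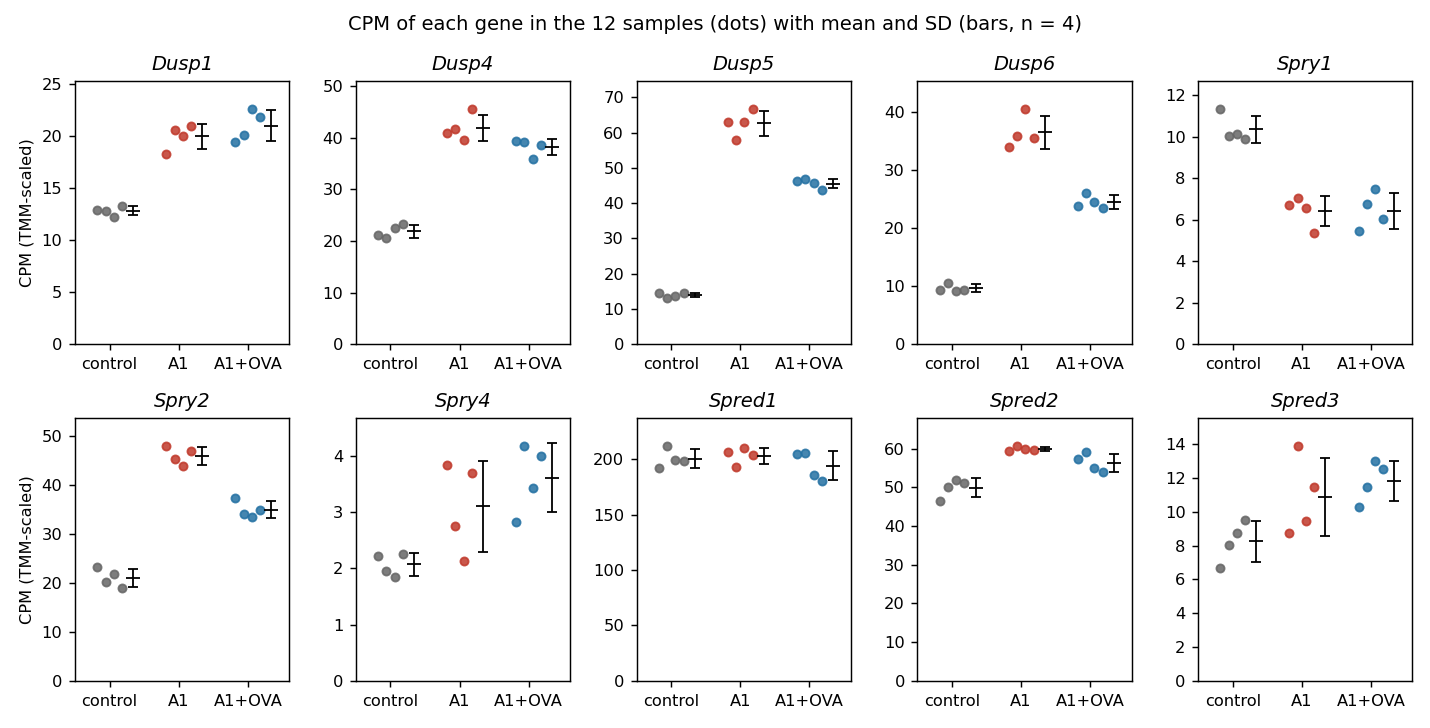
CPM (TMM-scaled, linear axes from 0) of each of the 10 genes in control, A1 and A1+OVA MSCs; dots are the 12 samples and bars the mean and SD (n = 4). Dusp5 sits between 13.2 and 14.6 CPM in control, 57.9 and 66.7 in A1 and 43.7 and 46.7 in A1+OVA, whereas the Spred1 samples of all groups share the range of 181 to 212.

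Dusp5, a nuclear phosphatase selective for the ERK kinases, rose the most of the 10 genes. It lies on chr19:53529109-53542431 (GRCm38, plus strand). Its level was 14.6, 13.2, 13.6 and 14.5 CPM in the control samples, 63.0, 57.9, 63.1 and 66.7 in A1, and 46.2, 46.7, 45.7 and 43.7 in A1+OVA. All 4 A1 samples lay above all A1+OVA samples, and these above all control samples. The log2 fold change against control was 2.17 ± 0.058 (SE, n = 4 per group, edgeR adjusted p = 6.77e-18) with A1 and 1.71 ± 0.059 (adjusted p = 5.22e-16) with A1+OVA, which are 4.49-fold and 3.26-fold increases. In the A1 comparison only 0.849% of tested genes had a larger absolute log2 fold change. An antisense gene, AC137853.2, shares 547 exon bases with Dusp5 on the other strand; reads were counted by strand.

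Dusp6, the cytoplasmic ERK phosphatase, followed the same order of groups. It lies on chr10:99263231-99267489 (plus strand). Control samples held 9.41, 10.6, 9.22 and 9.34 CPM, A1 samples 34, 36.0, 40.5 and 35.7, and A1+OVA samples 23.8, 26.1, 24.5 and 23.4. The 3 groups did not overlap. The increase over control was 3.78-fold with A1 (log2 fold change 1.92 ± 0.073, edgeR adjusted p = 2.05e-15) and 2.53-fold with A1+OVA (1.34 ± 0.075, adjusted p = 1.58e-12).

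Dusp4, a nuclear phosphatase that acts on ERK, JNK and p38, lies on chr8:34807297-34819894 (plus strand). It measured 21.1, 20.6, 22.6 and 23.3 CPM in control, 40.9, 41.7, 39.5 and 45.5 in A1, and 39.3, 39.1, 35.8 and 38.6 in A1+OVA. Every treated sample was above every control sample. Its log2 fold change was 0.94 ± 0.060 with A1 (edgeR adjusted p = 1.21e-11) and 0.80 ± 0.060 with A1+OVA (adjusted p = 1.77e-10).

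Dusp1, the immediate-early nuclear phosphatase that acts on p38 and JNK as well as ERK, lies on chr17:26505590-26562128 (minus strand). This span covers 6 annotated transcripts and extends upstream of the RefSeq start used for the promoter shown above. Dusp1 measured 12.9, 12.8, 12.3 and 13.3 CPM in control, 18.3, 20.6, 20 and 21 in A1, and 19.4, 20.1, 22.6 and 21.9 in A1+OVA. Both treated groups lay above control and overlapped each other. The log2 fold change was 0.64 ± 0.072 with A1 (edgeR adjusted p = 1.06e-07) and 0.71 ± 0.070 with A1+OVA (adjusted p = 1.56e-08).

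The Sproutys, which interfere with Grb2, Sos and Raf, did not move together. Spry2, on chr14:105891947-105896819 (minus strand), measured 23.2, 20.2, 21.8 and 19.1 CPM in control, 48.0, 45.3, 43.9 and 47.1 in A1, and 37.4, 34.2, 33.5 and 35.0 in A1+OVA. As for Dusp5 and Dusp6, the 3 groups did not overlap and A1 was the highest. Its log2 fold change was 1.13 ± 0.062 with A1 (edgeR adjusted p = 9e-13) and 0.73 ± 0.063 with A1+OVA (adjusted p = 1.8e-09).

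Spry1 went the other way. On chr3:37639947-37644598 (plus strand), it measured 11.3, 10.0, 10.1 and 9.91 CPM in control, 6.73, 7.02, 6.56 and 5.37 in A1, and 5.44, 6.77, 7.46 and 6.04 in A1+OVA. Each treated sample was below each control sample, and the treated groups overlapped. The log2 fold change was -0.69 ± 0.11 with A1 (edgeR adjusted p = 8.31e-06) and -0.68 ± 0.10 with A1+OVA (adjusted p = 7.58e-06). Spry1 shares 710 exon bases with Gm42922, annotated on the opposite strand.

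Spry4, on chr18:38586247-38601415 (minus strand), was the least abundant of the 10 genes, with 28 to 66 counts per library. It measured 2.23, 1.95, 1.86 and 2.26 CPM in control, 3.83, 2.75, 2.14 and 3.70 in A1, and 2.83, 4.18, 3.43 and 4.01 in A1+OVA. Of the A1 samples, 1 fell within the control range, and no A1+OVA sample did. The log2 fold change was 0.59 ± 0.19 with A1 (edgeR adjusted p = 0.0106) and 0.81 ± 0.18 with A1+OVA (adjusted p = 0.000606). Without A1 replicate 1 the A1 value was 0.47 and no longer passed (adjusted p = 0.0573).

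The Spreds, membrane-bound inhibitors that bring the Ras inactivator neurofibromin to Ras, changed the least. Spred1, on chr2:117121374-117182279 (plus strand), was at 192 to 212 CPM in control, 193 to 210 in A1 and 181 to 206 in A1+OVA. The 3 groups overlapped, and neither treatment passed the test against control. The log2 fold change was 0.020 with A1 (95% interval -0.075 to 0.12, edgeR adjusted p = 0.719) and -0.046 with A1+OVA (-0.14 to 0.049, adjusted p = 0.4). With at least 2530 counts in every library, Spred1 was also the most deeply measured of the 10 genes.

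Spred2, on chr11:19924375-20024026 (plus strand), measured 46.4, 50.2, 51.9 and 51.2 CPM in control, 59.4, 60.7, 59.8 and 59.8 in A1, and 57.3, 59.1, 55.1 and 53.9 in A1+OVA. Every treated sample exceeded every control sample, although the log2 fold changes were small, 0.26 ± 0.047 with A1 (edgeR adjusted p = 4.99e-05) and 0.17 ± 0.047 with A1+OVA (adjusted p = 0.00301). In the A1 comparison 44.8% of tested genes had a larger absolute change.

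Spred3, on chr7:29158829-29170411 (minus strand), measured 6.68, 8.04, 8.72 and 9.53 CPM in control, 8.75, 13.9, 9.47 and 11.5 in A1, and 10.3, 11.5, 13.0 and 12.5 in A1+OVA. The A1 samples overlapped control and the A1+OVA samples did not. Its log2 fold change was 0.40 ± 0.13 with A1 (edgeR adjusted p = 0.0114) and 0.52 ± 0.13 with A1+OVA (adjusted p = 0.00132). Without A1 replicate 2, its highest A1 sample, the A1 value was 0.27 and did not pass (adjusted p = 0.0756). Spred3 shares 202 exon bases with Ggn on the opposite strand.

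With A1+OVA against control, 8 of the 10 genes were again higher, 1 lower (Spry1) and 1 not called (Spred1), where 57.6% of all tested genes passed, 29.7% higher and 27.9% lower. Groups did not overlap for 9 of the 10 genes, beside 49.4% of all tested genes, and the median log2 fold change was 0.72 against 0.0036. This comparison and the one with A1 alone use the same 4 control samples, so their likeness is not independent evidence.

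In the direct edgeR comparison of both treated groups, 3 of the 10 genes were lower with A1+OVA than with A1 alone, namely Dusp6, Dusp5 and Spry2. Across all tested genes 12.9% passed in this comparison, 6.81% lower and 6.05% higher. Dusp6 alone also reached an absolute change of 0.5 or more on this scale, beside 1.20% of all tested genes. The log2 fold change was -0.58 ± 0.064 for Dusp6 (adjusted p = 4.32e-06), -0.46 ± 0.050 for Dusp5 (adjusted p = 3.59e-06) and -0.40 ± 0.059 for Spry2 (adjusted p = 0.000122). These are levels of 0.671, 0.727 and 0.759 times those with A1 alone, each still above control. Only 1.94% of tested genes changed more than Dusp6 in absolute terms, 3.54% more than Dusp5 and 4.95% more than Spry2.

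The other 7 genes did not pass in this comparison, and DESeq2 also called 3 of the 10. Dusp4 came closest, at -0.13 (95% interval -0.25 to -0.0165, unadjusted p = 0.0274, edgeR adjusted p = 0.125), with all A1+OVA samples below all A1 samples. Spred2 was at -0.089 (-0.19 to 0.0075) and also had no overlap between the groups. For Dusp1 the interval was -0.066 to 0.22 and for Spred1 -0.16 to 0.029. The widest intervals were those of Spry4 (-0.14 to 0.58), Spred3 (-0.14 to 0.38) and Spry1 (-0.24 to 0.25). In all, the groups did not overlap for 5 of the 10 genes, beside 18.1% of all tested genes.

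**Figure D2:**
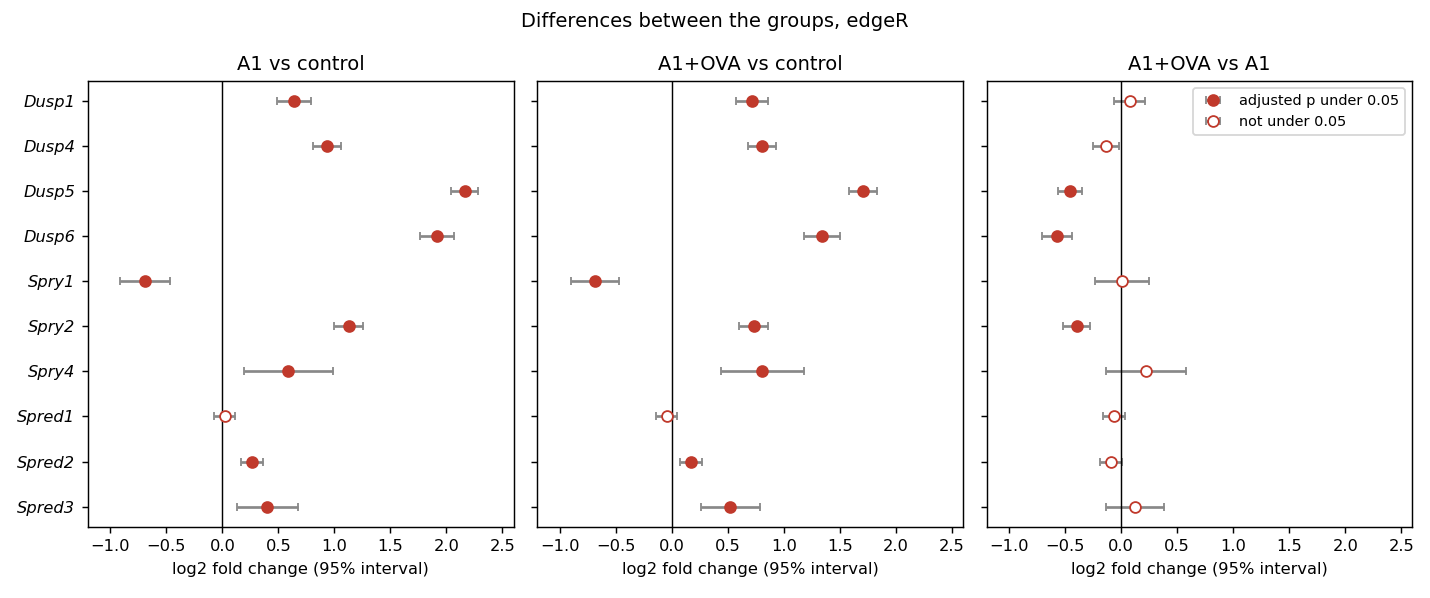
Log2 fold change (x axis, common scale) of the 10 genes in A1 against control, A1+OVA against control and A1+OVA against A1, from edgeR; bars are 95% intervals and filled points have an adjusted p under 0.05. Dusp5 and Dusp6 lie farthest to the right in the first panel at 2.17 and 1.92, Spry1 lies to the left at -0.69, and in the panel of A1+OVA against A1 the filled points are Dusp5, Dusp6 and Spry2.

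Levels of different genes were compared per kilobase of the union of their exons, as TMM-scaled CPM divided by exon length in kilobases (RPKM). In control MSCs Spred1 was the most abundant transcript at 29.5 ± 1.24 RPKM (SD, n = 4), followed by Spred2 (10.8 ± 0.529), Spry2 (10.1 ± 0.877), Dusp4 (7.99 ± 0.467), Dusp5 (5.65 ± 0.274), Dusp1 (3.87 ± 0.129), Spry1 (3.56 ± 0.225), Dusp6 (3.08 ± 0.212), Spred3 (1.33 ± 0.194) and Spry4 (0.436 ± 0.042). The samples of Spred2 and Spry2 overlapped in level, as did those of Dusp1 and Spry1, and all other neighbours in this order were apart. With A1, Dusp5 moved from the fifth place to the second (25.3 ± 1.46 RPKM), just below Spred1 (29.96 ± 1.08), and Dusp6 from the eighth to the sixth (11.7 ± 0.895). Spry2 kept its place in the order at 22.1 ± 0.881 RPKM. With A1+OVA the order of the first 5 was the same as with A1, but the samples of Dusp5 (18.4 ± 0.534) and Spry2 (16.8 ± 0.818) overlapped. In both treated groups the samples of Spry1 and Spred3 overlapped, and so did those of Spred2 and Dusp6 with A1.

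**Figure D3:**
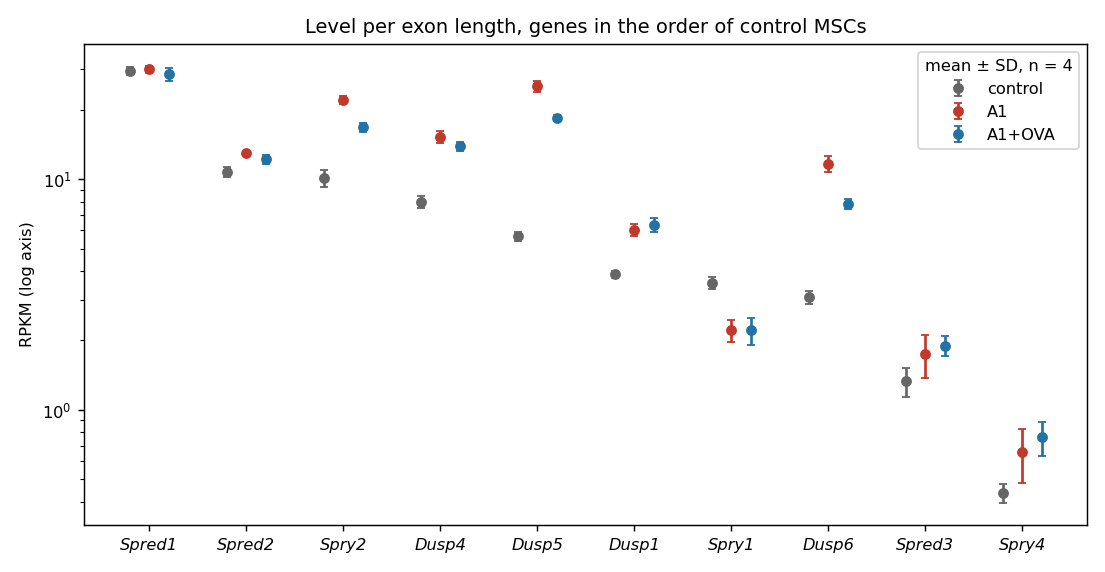
Level per exon length (RPKM, log axis) of the 10 genes, ordered by their mean in control MSCs, with mean and SD of 4 samples in control, A1 and A1+OVA. Spred1 stays at 28.6 to 29.96 RPKM in all groups, while Dusp5 goes from 5.65 in control to 25.3 with A1 and 18.4 with A1+OVA.

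The make-up of each family among the 10 genes, given as a description with no test and without Spry3 and the other MAPK phosphatases, followed from these levels. Spry2 contributed 71.6% ± 1.15 (SD, n = 4) of the summed RPKM of the 3 Sproutys in control, 88.5% ± 0.759 with A1 and 84.9% ± 2.19 with A1+OVA. The share of Spry1 was 25.3% ± 0.776, 8.88% ± 1.09 and 11.2% ± 1.76 in the same order. Among the 4 phosphatases, Dusp4 held the largest share in control (38.8% ± 1.6), and Dusp5 in A1 (43.4% ± 1.4) and A1+OVA (39.6% ± 0.725). The share of Dusp1 was 18.8% in control and 10.3% with A1 (24.5% and 13.9% per longest transcript), although its own level was higher. The summed RPKM of the 4 phosphatases was 20.6 ± 0.539 in control, 58.3 ± 2.28 with A1 and 46.5 ± 0.766 with A1+OVA. For the 3 Spreds it was 41.7 ± 1.67, 44.7 ± 0.669 and 42.7 ± 2.22. By this measure the Spreds together exceeded the phosphatases in control, and the phosphatases exceeded the Spreds after either treatment. The sums lay closest with A1+OVA, at 45.8 to 47.6 over the samples for the phosphatases and 40.3 to 44.9 for the Spreds. Sums per longest transcript were not compared.

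Other genes of the pathway were examined in 7 lists, of which 70 genes were tested. The lists were also chosen with earlier results of these data known, so their contrasts with all tested genes are descriptions. With A1 49 of the 70 passed, and each count of the lists stands beside the 31.7% of all tested genes that were higher and the 31.1% that were lower in that comparison. Among the remaining MAPK phosphatases and Spry3, 6 of 7 genes were tested, and with A1 1 was higher and 2 were lower (median log2 fold change 0.092). Dusp9, an ERK phosphatase, was higher at 1.42 ± 0.37 on 3 to 15 counts per library (edgeR adjusted p = 0.00221), and Dusp10, which acts on p38 and JNK, was lower at -0.25. Spry3 was lower, like Spry1 and unlike Spry2, at 14.1 ± 0.399 CPM in control, 5.95 ± 0.589 with A1 and 4.85 ± 0.336 with A1+OVA (log2 fold change with A1 -1.24 ± 0.088, adjusted p = 6.32e-11). Dusp2 had at most 1 count in any library and was not tested.

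The transcripts of the cascade that these genes restrain moved in both directions. Of 18 tested Ras-ERK cascade genes, 6 were higher and 8 lower under A1 treatment (median -0.0066 on the log2 scale), beside 31.7% and 31.1% of all tested genes. Mapk3, which encodes an ERK kinase, was lower at -0.22 (edgeR adjusted p = 0.000748). Mapk3 did not pass with A1+OVA against control (-0.076, edgeR adjusted p = 0.198). The largest changes with A1 were in the Ras-like GTPase Mras (-0.70), Hras (0.51) and the scaffold Ksr1 (-0.48). Of 5 tested p38 and JNK kinases, 1 was higher with A1 (Mapk14, 0.10) and 4 did not pass.

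Of 12 Ras GTPase-activating proteins and other inhibitors, 8 were higher and 1 was lower with A1 (median 0.45), where 31.7% of all tested genes were higher and 31.1% lower. The EGF receptor inhibitor Errfi1 rose from 86.9 ± 2.4 CPM in control to 224 ± 10.6 with A1 (log2 fold change 1.37 ± 0.039, edgeR adjusted p = 2.06e-17), and the Ras GTPase-activating protein Rasal2 was higher at 0.75. Il17rd, the FGF receptor antagonist also called Sef, was lower, at 51.8 ± 1.41 CPM in control and 18.3 ± 1.65 with A1 (-1.50 ± 0.069, adjusted p = 4.45e-14). Of 6 partners of the Sproutys and Spreds, 4 were higher and 2 did not pass. The 4 were the ubiquitin ligases Cblb (0.62) and Siah2 (0.41), the kinase Tesk1 (0.40) and the caveolin gene Cav1 (0.13), the last of these named after its value was seen.

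Of 13 transcripts known as ERK targets outside the 10 genes, 11 were higher and 2 lower with A1 (median 1.08), where 62.7% of all tested genes passed. The samples of the groups did not overlap for any of the 13, beside 54.4% of all tested genes. The AP-1 subunit Fosl1 rose from 43.6 ± 1.86 to 159 ± 7.97 CPM (log2 fold change 1.87 ± 0.046, edgeR adjusted p = 1.33e-18), and the ETS factors Etv4 and Etv5 were higher at 1.78 and 0.98, whereas the related factor Etv1, named after its value was seen, was lower at -0.34 (adjusted p = 0.0045). Fos, the other AP-1 subunit in the list, was lower at -1.68 ± 0.38 (adjusted p = 0.000569), on 6 to 95 counts per library. Its control samples ranged from 1.94 to 5.88 CPM, and with A1+OVA it did not pass against control (-0.73, edgeR adjusted p = 0.0512). Of 10 tested growth factor receptors and FGF adaptors, 1 was higher and 4 lower (median -0.10). Fgfr2 was at -1.01, Pdgfra at -0.99 and Egfr, on 18 to 77 counts per library, at -0.97. The higher one was Fgfr1 at 0.31 (edgeR adjusted p = 7.14e-08), with 17.4 RPKM in control against 5.89 for Fgfr2. Pdgfrb did not pass (-0.0083, edgeR adjusted p = 0.867), with 71 RPKM in control against 24.7 for Pdgfra. Fgfr1 and Pdgfrb were named after their values were seen.

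With A1+OVA against control, which shares its control samples with A1, the counts higher and lower were 1 and 2 of 6 for the other phosphatases and Spry3, 3 and 6 of 18 for the cascade, 1 higher of 5 for p38 and JNK kinases, 8 and 1 of 12 for the inhibitors, 4 higher of 6 for the partners, 10 and 1 of 13 for the ERK targets, and 2 and 5 of 10 for the receptors and adaptors. The p38 or JNK kinase that was higher was Mapk11 (0.32, edgeR adjusted p = 0.0115), whereas Mapk14 did not pass (0.078, adjusted p = 0.0713). Among the partners Cbl was higher (0.32, adjusted p = 0.00144), and Cav1 did not pass (0.067, adjusted p = 0.0978). Over all tested genes 29.7% were higher and 27.9% lower in that comparison. The share that passed was below the overall 57.6% for the other phosphatases and Spry3, the cascade and the p38 and JNK kinases. Between the treated groups, 9 of the 70 list genes passed, the same share as over all tested genes (12.9%), so the count says nothing particular to the pathway. Errfi1 was lower with A1+OVA than with A1 (-0.49 ± 0.038, edgeR adjusted p = 3.22e-08), as were 3 of the 13 ERK targets: Egr1 (-0.78 ± 0.074, adjusted p = 5.54e-07), Fosl1 (-0.24) and Ccnd1 (-0.15). Etv4 (-0.14, adjusted p = 0.233) and Etv5 (0.033, adjusted p = 0.813) did not pass. The other 5 were Grb2 (-0.16), Frs2 (-0.17), Pdgfra (-0.17) and Pdgfrb (-0.13), all lower, and Frs3 (0.66), which was higher. Frs3 had 15 to 42 counts per library, at a mean of 2.32 CPM in control, 1.45 with A1 and 2.29 with A1+OVA. Mapk11, Cbl, Egr1, Ccnd1, Grb2, Frs2, Frs3 and Pdgfrb were named after their values were seen. The count of 9 fell to 5 without A1 replicate 4 and to 5 without A1+OVA replicate 3.

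**Figure D4:**
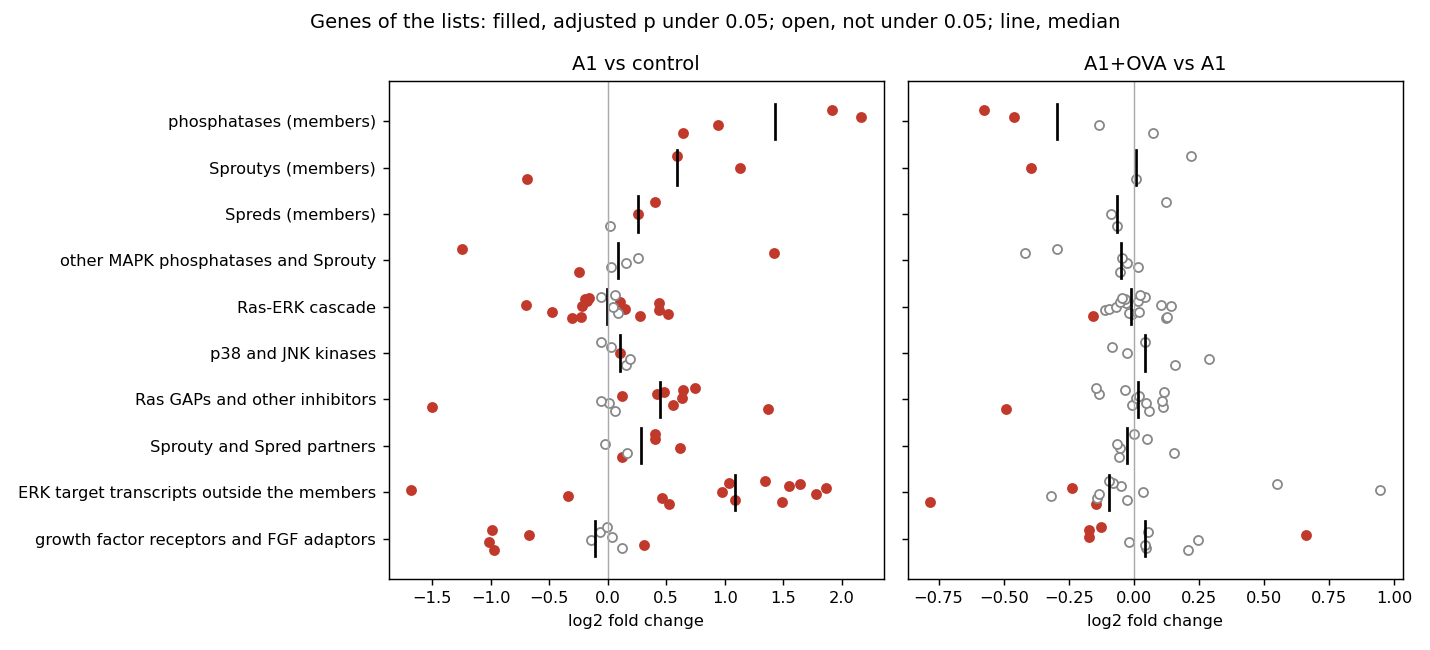
Log2 fold change (x axis, different ranges in the panels) of each gene in the 3 families and the 7 other lists, for A1 against control and A1+OVA against A1; filled points have an edgeR adjusted p under 0.05 and vertical lines are list medians. With A1 the ERK targets have a median of 1.08 and the cascade genes one of -0.0066, and in the second panel most points are open.

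The genes most like Dusp6 in log2 CPM over the 12 samples were the growth hormone receptor Ghr (Pearson r = 0.9981), the neurotrophin Bdnf (0.9964) and Errfi1 (0.9961). These correlations are descriptions over 3 separate groups of samples, and 1276 tested genes had a coefficient above 0.9. Ghr had a log2 fold change against control of 0.75 with A1 and 0.55 with A1+OVA, and Bdnf of 1.42 and 1.04.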

How the data were processed

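The deposited table holds raw read counts per gene for all 12 samples, made by the authors from strand-specific paired-end libraries. The submitters' processing notes name bcl2fastq 2.20, STAR 2.7 and featureCounts 2.0 and the build GRCm38. Here, gene names, biotypes and exon lengths were taken from GENCODE M21, which held 99.53% of the gene identifiers, and 11314 of 21974 protein-coding genes passed edgeR's filterByExpr. The counts were scaled by TMM and fitted with edgeR 4.0.16 (quasi-likelihood, R 4.3.3), all 12 samples in 1 fit by group, with Benjamini-Hochberg adjustment over all tested genes. A gene was called at an adjusted p under 0.05. SEs are the log2 fold change divided by the root of the F statistic. CPM used TMM-scaled depth, and 3 counts, taken as the floor, correspond to 0.177 to 0.229 CPM. The floor covers counting error only.

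The 10 genes and all gene lists were chosen with earlier results of these data known. All 10 are named, and from each other list the 3 called genes with the largest change in A1 against control, with Mapk3, Etv4 and Etv5 added; 1 further gene of this rule is not reported here. The comparison of 18 within-group library pairs found no copies (chi-square per gene 1.92 to 6.83). Alternatives were DESeq2 1.42.0, other scalings, filters, gene universes and thresholds, a replicate block, and leaving out each sample. The fitting script was tested on simulated data. Sequences came from RefSeq promoter windows of GRCm38.p6.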

Additional observations from a re-analysis of the deposited data

Results flagged for a closer look

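In 30 groups of 4 samples, 1 for each gene and treatment, Dixon's test at the 95% level marked 2 samples as standing apart, and chance marks about 1 in 20 groups. Dusp6 was at 10.6 CPM in control replicate 2, where the nearest control sample was at 9.41. Spry1 was at 11.3 CPM in control replicate 1, where the nearest was at 10.1. In both cases the group differences described for these genes kept their calls without that sample.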

How the results depend on the processing

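Of the 10 genes, 9, 9 and 3 were called in A1 against control, A1+OVA against control and A1+OVA against A1, and these counts were the same under upper quartile and RLE scaling, DESeq2, an unfiltered table, a minimum of 10 counts per sample, a universe of all biotypes, and fits of only the groups compared. Leaving out 1 sample at a time gave 8 to 9, 9 to 9 and 3 to 3. The counts over the pathway lists were 49, 44 and 9, with ranges of 46 to 50, 43 to 46 and 5 to 11 when 1 sample was left out. A required absolute log2 fold change of at least 0.5 left 7, 8 and 1 (Dusp6) of the 10 genes in the 3 comparisons. In the same order it left 26, 25 and 2 list genes, and 2372, 2004 and 136 of all tested genes, by construction of the threshold. Replicates with the same number did not deviate together on average (mean r = 0.021 over 12 pairs, -0.132 to 0.156). Pairs with different numbers had a mean r of -0.007 (-0.183 to 0.175). Such a correlation over all tested genes cannot exclude a pairing, and the labels do not say what the numbers mean. A fit with the replicate block called 9, 9 and 3 of the 10 genes, 50, 46 and 10 list genes, and 7134, 6580 and 1488 of all genes. Values near 0 changed sign without passing a test: Spred1 with A1 was at -0.0089 under upper quartile scaling and at -0.003 to 0.0486 with 1 sample left out (negative without A1 replicate 3), and Spry1 in A1+OVA against A1 at -0.075 to 0.0723 (negative without A1 replicate 4, A1+OVA replicate 2 or A1+OVA replicate 3). The cause was not tested. Per length of the longest transcript, Spred3 ranked above Spry1 in both treated groups and Dusp1 above Dusp6 with A1+OVA. Spry4 had the fewest counts, 28 to 66 per library.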
